A study of Homo sapiens with 16 samples.

Results

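A549 lung carcinoma cells held 772 HIF-2α binding sites in these data, and 395 of them had no HIF-2α peak in any library of HCT116, PC3 or T47D. A site was a merged peak that overlapped by at least 1 bp in both A549 HIF-2α libraries (replicates 2 and 3). Sites without a HIF-2α peak in the 6 libraries of the other lines are called A549-private here, and the other 377 sites are called shared. The 772 sites were among 1134 merged HIF-2α sites of the 4 lines, taken from 7015 HIF-2α peaks and 23398 peaks of the whole series. All 4 lines are established cancer lines, from lung (A549), colon (HCT116), prostate (PC3) and breast (T47D), and all cells were exposed to 0.5% oxygen for 16 hours. No normoxic library was used here. Chromatin was precipitated with the rabbit polyclonal antibody PM9 against HIF-2α, or with PM14 against HIF-1α in the 8 further libraries that were used only to look up overlaps. Culture media were F12K for A549 and PC3, McCoy's 5a for HCT116 and DMEM for T47D. Line and medium therefore cannot be told apart, except that A549 and PC3 shared a medium. Each line was represented by 2 HIF-2α libraries, and nothing in the labels states that they came from separate cultures, so the spread between them may be technical. Peak lists contain no expression values, and the identity of the cells could not be checked against marker genes.

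HIF-2α, encoded by EPAS1, is one of the oxygen-regulated subunits of the hypoxia-inducible factors. It escapes hydroxylation and degradation when oxygen is low, pairs with HIF-1β and binds DNA at a short core, ACGTG or GCGTG. HIF-1α binds the same core and is known for sites at the promoters of glycolytic genes, whereas HIF-2α is known for sites far from promoters and for a narrower range of cell types.

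The core and its surroundings are shown for 9 sites, 4 of the best-scoring A549-private sites and 5 of the best-scoring sites with a peak in all 6 other HIF-2α libraries. Each run holds 61 bases of GRCh37 around the core nearest to the centre of the site, and capitals mark ACGTG or GCGTG on the printed strand. In the BHLHE40 sequence the core is read on both strands, so 6 letters are in capitals. The A549-private sequences came from chr9:132250809-132250869 (minus strand), chr7:94893612-94893672 (minus), chr7:1560477-1560537 (plus) and chr5:106701455-106701515 (minus), and are named by the nearest protein-coding gene.
NTMT1 site: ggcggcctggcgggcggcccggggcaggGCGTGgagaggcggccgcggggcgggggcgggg
PON1 site: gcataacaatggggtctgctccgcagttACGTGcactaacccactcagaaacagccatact
MAFK site: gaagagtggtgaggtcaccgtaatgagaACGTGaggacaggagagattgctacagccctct
EFNA5 site: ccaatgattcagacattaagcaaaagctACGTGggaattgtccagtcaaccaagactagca

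The sequences present in all 6 other libraries came from chr3:5020850-5020910 (plus), chr5:90576787-90576847 (minus), chr14:62217986-62218046 (plus), chr16:30076855-30076915 (minus) and chr12:125322848-125322908 (plus).
BHLHE40 site: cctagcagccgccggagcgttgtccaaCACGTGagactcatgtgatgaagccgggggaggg
ARRDC3 site: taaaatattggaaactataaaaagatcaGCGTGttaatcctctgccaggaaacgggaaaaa
SNAPC1 site: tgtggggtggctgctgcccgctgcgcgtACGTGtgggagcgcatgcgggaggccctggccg
ALDOA site: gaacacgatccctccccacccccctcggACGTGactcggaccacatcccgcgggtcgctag
SCARB1 site: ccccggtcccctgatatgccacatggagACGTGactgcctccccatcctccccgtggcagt

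The first comparison was how far A549 HIF-2α sites recurred in the other lines. The A549-private share was 51.2% (395 of 772, Wilson 95% interval 47.6 to 54.7%, counting error only). Of the shared sites, 203 had a peak in 1 other line, 109 in 2 and 65 in all 3, and 26 had one in each of the 6 other libraries. At 152 shared sites only 1 other library held a peak. A549 sites needed both replicates. With both replicates of another line required as well, the A549-private share was 75.4%. PC3 was the most frequent partner: 130 sites were found in PC3 and in neither HCT116 nor T47D, 56 in HCT116 alone of the 3 lines and 17 in T47D alone. PC3 was also the only other line grown in the medium of A549, and line and medium cannot be told apart in this order. Both HCT116 and PC3, but not T47D, had a peak at 89 sites.

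The 3 longest lists overlapped the most A549 sites. PC3 replicate 2, with 1290 peaks, held a peak at 38.1% of the A549 sites, and PC3 replicate 1, with 275 peaks, at 10.9%. The corresponding shares were 26.7% for HCT116 replicate 2 (1264 peaks), 21.0% for HCT116 replicate 3 (901), 9.46% for T47D replicate 1 (423) and 12.05% for T47D replicate 2 (424). The A549 lists were themselves long, with 1382 peaks in replicate 2 and 1056 in replicate 3. Of the replicate 2 peaks 56.0% had a peak in replicate 3, and of the replicate 3 peaks 73.4% had one in replicate 2. Sites of the other lines, treated in the same way, were private in 33.1% of 350 for HCT116, 26.0% of 154 for PC3 and 51.1% of 180 for T47D, but each line was searched in a different number of peaks of other lines (4577 for A549 and 6168 for T47D), so these shares are not ranked. Read depth is not given in the lists, and a missing peak may lie under the threshold of the peak caller. Leaving out PC3 raised the private share to 68.0%.

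**Figure D1:**
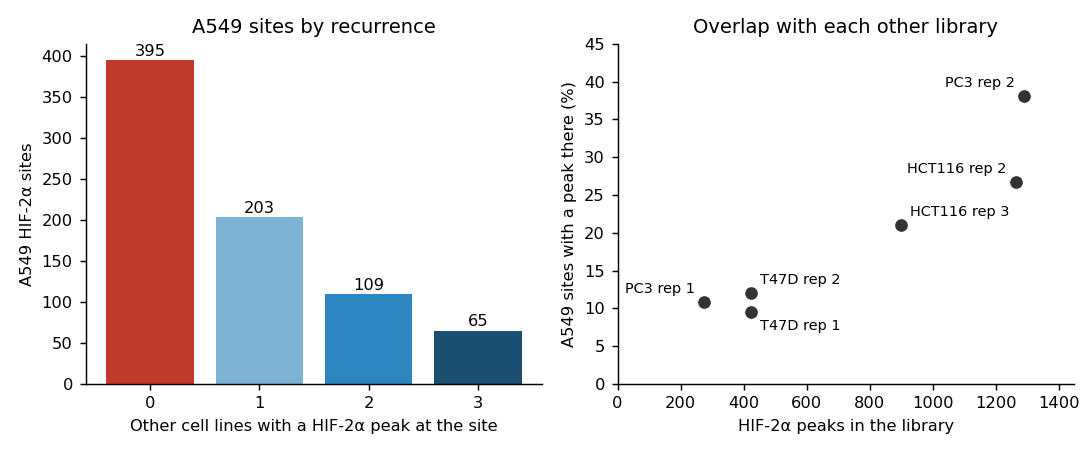
Left, bars give the number of A549 HIF-2α sites with a HIF-2α peak in 0, 1, 2 or 3 other cell lines. Right, each point is 1 HIF-2α library of another line, with its number of peaks on the x axis and the percent of the 772 A549 sites that it overlapped on the y axis; the overlap ran from 9.46% (T47D replicate 1) to 38.1% (PC3 replicate 2).

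The boundary between the classes is set by an overlap of 1 bp. An A549-private site nearest LIF (chr22:30600987-30602337), a cytokine gene, missed a peak of another line by 21 bp, and one nearest RIPK4 (chr21:43050216-43051023) by 26 bp. At the other side, a shared site nearest PLIN2 (chr9:19162479-19163472) overlapped by 105 bp. Few sites lay near the boundary: 7 A549-private sites were within 1000 bp of a HIF-2α peak of another line and 47 within 10000 bp, and the median gap was 137131 bp. Clusters mixed the classes, since 58 A549-private sites (14.7%) had a shared site and 76 (19.2%) another private site within 50000 bp.

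The second comparison concerned position relative to genes. A549-private sites lay farther from start sites of protein-coding transcripts, with a median of 23060 bp (quartiles 6972 and 73159.5) against 13693 bp (1043 and 49585) for shared sites. The difference lay in the promoter fraction: 41 of 395 A549-private sites (10.4%, Wilson 95% interval 7.74 to 13.8%) and 94 of 377 shared sites (24.9%, 20.8 to 29.5%) were within 1000 bp of a start site. Beyond 1000 bp the classes had nearly equal medians, 26442.5 bp for 354 A549-private sites and 26543 bp for 283 shared sites. The 65 sites found in all 3 other lines stood apart, with a median of 423 bp and 55.4% within 1000 bp, whereas the medians were 20551 bp with 1 other line and 17003 bp with 2. The share within 1000 bp also differed by partner line. It was 37.5% of 56 sites shared with HCT116 alone and 23.5% of 17 with T47D alone. For 130 sites shared with PC3 alone it was 10.8%, close to the A549-private sites. Whole lists differed too, with median distances of 8353 and 10527 bp in HCT116 and 25441 and 13529.5 bp in PC3. The part of this in the difference by partner was not tested. The site values are descriptions, since sites are not replicates of a condition.

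Most A549-private sites were intergenic (229, 57.97%) or intronic (157, 39.7%), while 7 had their centre in a UTR and 2 in a coding exon. Shared sites were intergenic in 62.9% and intronic in 31.3%. Context was judged at the site centre over representative protein-coding transcripts, so a promoter site centred just upstream of a start counted as intergenic. Sites that spanned a start site made up 23.9% of shared and 9.11% of A549-private sites. Far sites were frequent, with 130 A549-private sites (32.9%) and 94 shared sites (24.9%) more than 50000 bp from a start site. Upstream and downstream positions were about equally common, 49.9% of A549-private and 52.3% of shared sites being upstream of the nearest start.

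**Figure D2:**
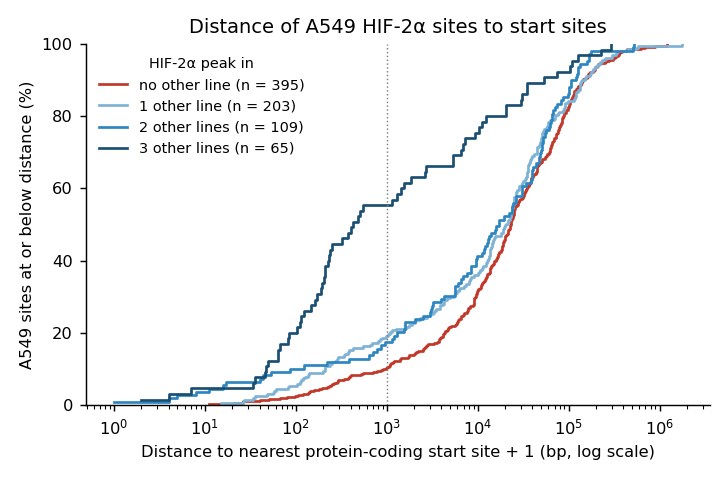
Lines give the percent of A549 HIF-2α sites at or below each distance to the nearest protein-coding start site (bp + 1, log axis), for sites with a HIF-2α peak in no other line or in 1, 2 or 3 other lines. The line for 3 other lines crosses the dotted mark at 1000 bp with 55.4% of sites and the line for no other line with 10.4%.

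The same contrast could be tested over the 8 HIF-2α libraries, since in every library peaks with no HIF-2α peak in another line can be set against peaks that have one. In A549 replicate 2 the median distance was 28505 bp for line-private and 14992 bp for shared peaks, and in replicate 3 it was 21730 and 11888 bp. Line-private peaks were also farther in HCT116 replicate 2 (9738 and 5580 bp), HCT116 replicate 3 (13072 and 6543 bp) and PC3 replicate 1 (43188 and 11633 bp), but not in PC3 replicate 2 (13235 and 14168 bp). The widest gaps were in T47D, with 50433 and 1694 bp in replicate 1 and 43442 and 1767 bp in replicate 2. The mean difference was 0.56 on the log10 scale and positive in 7 of 8 libraries (two-sided exact sign-flip permutation p = 0.0156, adjusted p = 0.0469 over 12 tests). The A549 difference of 0.27 ± 0.012 (SD, n = 2) was not distinguishable from the 0.66 ± 0.63 (SD, n = 6) of the other lines (difference −0.39, exact permutation p = 0.536, adjusted p = 0.584). Replicates of a line are not independent lines: with cell lines as units the smallest possible exact permutation p is 0.125, which this and the other 3 tests within libraries gave. Lines are not independent in these tests either. A peak is shared through peaks of other lines, so the same loci can enter the shared class of several libraries, and the p takes no account of this. With any 1 library left out the adjusted p of the first test was above 0.05; without T47D the mean difference was 0.24. Over all their peaks, A549 libraries did not differ detectably from the others in distance (median log10 distance higher by 0.10, exact permutation p = 0.607, adjusted p = 0.607).

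**Figure D3:**
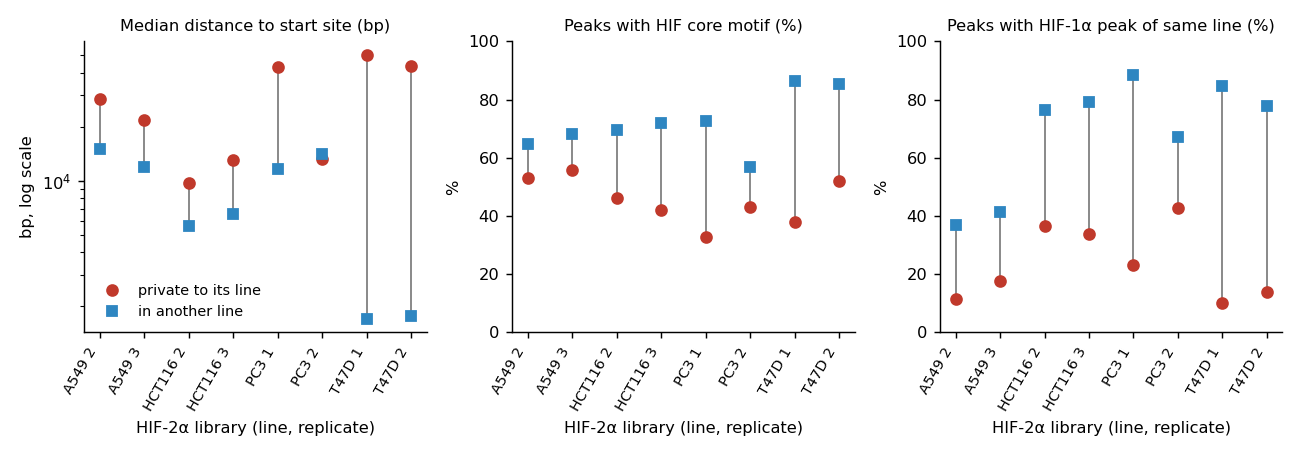
For each of the 8 HIF-2α libraries, circles give peaks private to their line and squares peaks that overlap a HIF-2α peak of another line. The y axes show median distance to a start site (bp, log axis), percent of peaks with the HIF core in the central 200 bp, and percent of peaks with a HIF-1α peak of the same line; the HIF core was less frequent in line-private peaks in 8 of 8 libraries and the distance was larger in 7 of 8.

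The third comparison was the rank of the peak score within its library, given as a percentile from 0 (lowest) to 100 (highest). A549-private sites ranked lower, with a median percentile of 66.4 in replicate 2 and 55.0 in replicate 3, against 76.3 and 71.9 for shared sites. Sites in all 3 other lines had medians of 88.9 and 91.6. When the 772 sites were divided by mean percentile into 4 bins of 193, the A549-private share was 62.2% in the lowest bin, 60.1% in the second, 49.2% in the third and 33.2% (64 of 193, Wilson 95% interval 26.9 to 40.1%) in the highest. Private sites were therefore present throughout the range: 30 of them (7.59%) and 81 shared sites (21.5%) had a mean percentile above 90. The distance contrast was present in the highest bin (25444 bp for A549-private and 14748 bp for shared sites) and in the lower 3 bins (21897 and 13317.5 bp).

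Line-private peaks ranked lower than shared peaks in all 8 libraries. The difference of median percentiles was −24.9 in A549 replicate 2 and −26.1 in A549 replicate 3, and −39.7, −42.3, −36.0, −31.3, −39.3 and −33.0 in HCT116 replicates 2 and 3, PC3 replicates 1 and 2 and T47D replicates 1 and 2. The mean was −34.1 (exact sign-flip permutation p = 0.0078, adjusted p = 0.0469). These values include peaks not found in the other replicate. Over A549 sites, which needed both replicates, the difference of median mean percentiles was smaller, −12.9. A shared peak had to be called in a library of another line as well, so a weak peak can become line-private by the rule itself. The test cannot tell this apart from other differences between the classes, and the part due to the rule was not tested. The tests of distance, HIF core and AP-1 used the same classes and have the same limit. A549 had the smallest differences, and its 2 libraries did not overlap with the other 6 (difference between A549 and the other lines 11.4 percentile points). The p was the smallest that 28 relabellings can give (exact permutation p = 0.0357) and did not pass after adjustment (adjusted p = 0.0714). The difference was not stable over the settings tried: it was 1.33 percentile points with the 275 best-scoring peaks of each library (exact permutation p = 0.857) and 3.72 at a stricter score threshold (exact permutation p = 0.5).

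**Figure D4:**
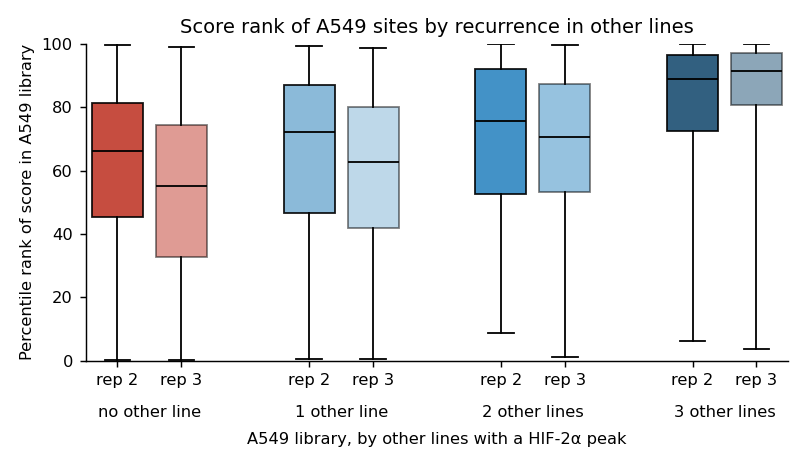
Boxes give the percentile rank of the score of A549 HIF-2α sites in replicate 2 (darker) and replicate 3 (lighter), by the number of other lines with a HIF-2α peak; the line is the median, the box the quartiles and the whiskers the lowest and highest site. Medians run from 66.4 and 55.0 with no other line to 88.9 and 91.6 with 3 other lines.

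Sequence at the site centres was then compared. The HIF core (ACGTG or GCGTG on either strand, central 200 bp) was present in 250 of 395 A549-private sites (63.3%, Wilson 95% interval 58.4 to 67.9%) and 262 of 377 shared sites (69.5%, 64.7 to 73.9%). Windows of the same length 5000 bp to each side held it in 21.5% and 23.6%, so both classes were far above their surroundings. At sites in all 3 other lines the share was 84.6% (73.9 to 91.4%), and 47.7% of those had at least 2 copies against 21.5% of A549-private sites. GC content of the window followed the same order, with medians of 50.5% in A549-private sites, 57.5% in shared sites and 68.5% in sites of all 3 lines. In the highest bin of score rank the classes were close, 71.9% of A549-private and 72.9% of shared sites having the core.

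Per library, line-private peaks held the HIF core less often in 8 of 8 cases, by −11.7 percentage points in A549 replicate 2 (53.0% and 64.8%) and by −12.4 in A549 replicate 3 (55.8% and 68.2%). The difference in the other libraries ran from −13.9 (PC3 replicate 2) to −48.5 (T47D replicate 1). The mean was −26.6 percentage points (exact sign-flip permutation p = 0.0078, adjusted p = 0.0469). Line-private peaks also ranked lower in every library, and this test cannot tell the core difference apart from that of rank. The smaller A549 difference was not separated from the others by the test (19.4 percentage points, exact permutation p = 0.0714, adjusted p = 0.122). Over all peaks, A549 libraries held the core in 57.2% and 60.98% and the other libraries in 48.5 to 62.5% (difference 6.44 percentage points, exact permutation p = 0.107, adjusted p = 0.143), and at a stricter score threshold this difference turned to −4.27.

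Motifs of other factors were counted in the same windows. The AP-1 motif TGACTCA, bound by JUN and FOS dimers, was present in 80 A549-private sites (20.3%) and 74 shared sites (19.6%), against 3.04% and 2.39% of flanking windows. It was most frequent at sites with 2 other lines (29.4%) and least at sites with 3 (9.23%). The C/EBP motif TTGCNNAA was present in 13.4% of A549-private sites (flanks 8.73%) and 9.02% of shared sites (flanks 8.09%), and in 0 of the 65 sites found in all 3 other lines, where a count of 0 allows a share of up to 4.62% (3 sites of 65; the Wilson 95% limit is 5.58%) and the flanks held it in 13.1%. The ETS motif CCGGAA had the opposite order, with 5.57% of A549-private sites and 16.9% of sites in 3 other lines. Median GC content of the window also differed, 50.5% in A549-private sites and 68.5% in sites of 3 other lines. Flanks were not matched for GC content, and its part in the motif differences was not tested. The forkhead motif TGTTTAC was found in 25 A549-private sites (6.33%) and 14 shared sites (3.71%), with flanks of 2.91% and 2.65%. For the antioxidant response motif TGACNNNGC the shares were 14.9% and 13.0%, with flanks of 8.48% and 7.82%, and it can overlap an AP-1 motif. TEAD (ACATTCC, 6.08% and 6.90%) and RUNX (TGTGGT, 12.4% and 13.0%) differed little between the classes.

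The AP-1 motif was next compared between A549 and the other lines. A549 libraries held TGACTCA in 24.02% (replicate 2) and 16.8% (replicate 3) of their HIF-2α peaks, and the others in 5.45 to 18.9%, with PC3 replicate 2 above the lower A549 library (difference 9.27 percentage points, exact permutation p = 0.107, adjusted p = 0.143). Line-private peaks held the motif less often than shared peaks in 7 of 8 libraries, the exception being A549 replicate 2 (higher by 1.34 percentage points), and the mean difference was −6.74 percentage points (exact sign-flip permutation p = 0.0156, adjusted p = 0.0469). In A549 the difference was −0.64 ± 2.80 (SD, n = 2) and in the other libraries −8.78 ± 5.21 (SD, n = 6), which the test did not separate (8.14 percentage points, exact permutation p = 0.143, adjusted p = 0.171). The call over 8 libraries was lost with a motif window of 100 bp (mean −2.91, exact permutation p = 0.0469, adjusted p = 0.0937).

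**Figure D5:**
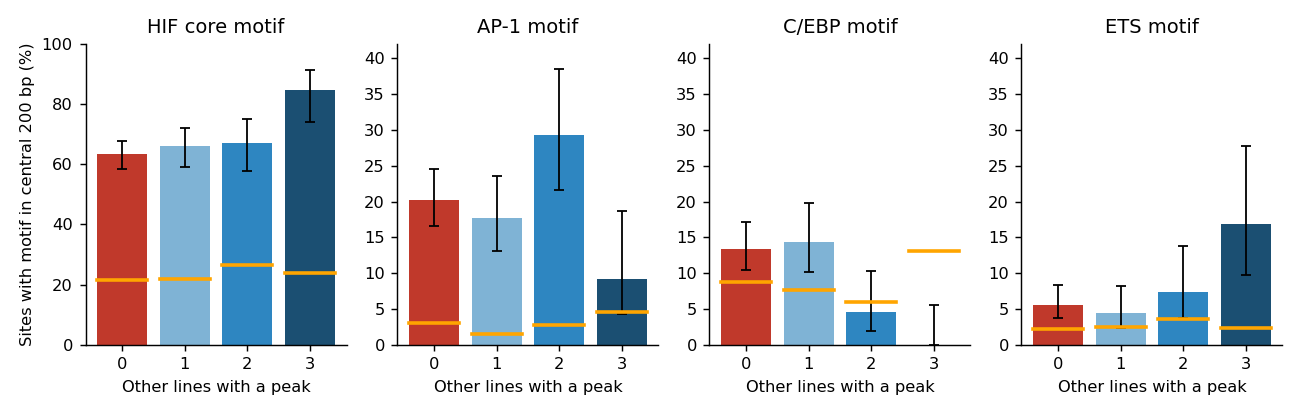
Bars give the percent of A549 HIF-2α sites with a motif in the central 200 bp, by the number of other lines with a HIF-2α peak (395, 203, 109 and 65 sites); error bars are Wilson 95% intervals and orange lines the percent of flanking windows with the motif. The scale of the first panel differs from the others; the HIF core rises from 63.3% to 84.6%, and C/EBP falls from 13.4% to 0.

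HIF-1α peaks were much rarer at A549-private sites. Of these, 86 (21.8%, Wilson 95% interval 18.0 to 26.1%) overlapped an A549 HIF-1α peak in at least 1 library, against 164 shared sites (43.5%, 38.6 to 48.5%) and 96.9% of sites in all 3 other lines. Looking across lines, 75 A549-private sites (18.99%) had a HIF-1α peak in another line although none of its HIF-2α libraries had a peak there, 53 of them in PC3, 44 in HCT116 and 13 in T47D, some in more than 1 line. Shared sites had a HIF-1α peak in another line in 75.1%. No HIF-1α peak in any of the 8 libraries was found at 271 A549-private sites (68.6%) and 89 shared sites (23.6%). Shared sites were defined by a HIF-2α peak in another line, and HIF-1α binds the same core. These contrasts across lines can therefore follow from the rule itself, and the part due to the rule was not tested. The A549 HIF-1α lists were short, with 382 and 629 peaks, against up to 4505 in HCT116. In all 8 HIF-2α libraries line-private peaks had a HIF-1α peak of the same line less often than shared peaks, so the direction was not particular to A549. The difference was −25.4 and −23.9 percentage points in A549 replicates 2 and 3. It was −40.1 and −45.4 in HCT116 replicates 2 and 3. In PC3 replicates 1 and 2 it was −65.3 and −24.5, and in T47D replicates 1 and 2 −74.3 and −63.9. Over whole libraries, a HIF-1α peak of the same line was present at 20.5% and 27.7% of A549 HIF-2α peaks and at 29.6 to 52.5% in the other lines, so the groups did not overlap (difference −19.9 percentage points). This p was the smallest possible with 28 relabellings (exact permutation p = 0.0357), and the adjusted p was 0.0714. The size of the difference varied with the setting, from −11.7 percentage points with the 275 best-scoring HIF-2α peaks of each library (exact permutation p = 0.429) and −12.4 with a reciprocal overlap of 50% (exact permutation p = 0.25) to −37.8 at a stricter score threshold.

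The larger median distance of A549-private sites was not seen among sites without an A549 HIF-1α peak. There, A549-private sites had a median distance of 23238 bp and shared sites one of 26177 bp, 8.41% and 14.1% were within 1000 bp of a start site, the same direction as over all sites, and the HIF core was present in 60.2% and 62.0%. Among sites with an A549 HIF-1α peak the medians were 18774.5 and 3254.5 bp, and the core was present in 74.4% and 79.3%.

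The best-ranked A549-private site was at chr10:47055614-47059563, 25868 bp upstream of NPY4R, a neuropeptide Y receptor gene that has a near-identical copy in the genome. Its scores were 2037 in replicate 2 and 1003 in replicate 3, and it held no HIF core in its centre. Next came a site 15187 bp upstream of DNAH17 (chr17:76587886-76589444), an axonemal dynein gene, with scores of 1621 and 924.8. Both also had a HIF-1α peak in A549 and in PC3. The site at chr9:132249858-132251705 (scores 955.0 and 652.9) was 120381 bp from NTMT1, a protein N-terminal methyltransferase gene, and had HIF-1α peaks in A549 and HCT116.

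Other sites among the 12 best-ranked were mostly far from their nearest gene. A site of scores 939.0 and 575.7 was nearest PON1, which encodes the serum paraoxonase, at 60263 bp, but lay within an intron of PPP1R9A (chr7:94892909-94894253). PMEPA1, an inhibitor of TGF-β signalling, had a site 37054 bp upstream (chr20:56322630-56324661, scores 617.5 and 733.1) with an AP-1 motif and no HIF core. Of the 12 sites, 11 were intergenic and 9 had a HIF-1α peak in A549.

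The other 3 of the 12 had no HIF-1α peak in any library. They were nearest to MAFK (chr7:1559789-1561220, scores 898.7 and 468.4), which encodes a small MAF protein that dimerises with NRF2, to PLEKHG7 (chr12:92987208-92988600, scores 671.4 and 565.9) and to CCR7 (chr17:38707143-38709227, scores 903.0 and 448.6), a chemokine receptor gene. Each of these 3 sites held 1 antioxidant response motif, and the MAFK site also held 2 HIF cores. The motif was not confined to sites without HIF-1α, since the DNAH17 site, with HIF-1α peaks in A549, held 2 copies. Sites near UACA (680.1 and 407.1), EFNA5, an ephrin ligand gene (594.7 and 414.1), and RBBP8, a DNA end resection gene (560.3 and 431.4), were also among the 12.

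A549-private sites at promoters were fewer and ranked lower. The best was 174 bp from a start site of PDE10A, a cyclic nucleotide phosphodiesterase gene (chr6:166400946-166402307, scores 562.5 and 383.5). It was followed by TNS1, which encodes the focal adhesion protein tensin (898 bp, scores 383.0 and 537.1), and PPP1R3C, which targets protein phosphatase 1 to glycogen (177 bp, scores 397.1 and 441.1). PPP1R3C had HIF-1α peaks in both A549 HIF-1α libraries and in both T47D HIF-1α libraries, although T47D had no HIF-2α peak there. ITGB5, an integrin subunit gene (265 bp, scores 458.8 and 340.7), and DHRS3, a retinaldehyde reductase gene (396 bp, scores 445.4 and 349.7), had no HIF-1α peak in any library.

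Some genes collected several A549-private sites. PDE4D, a cAMP phosphodiesterase gene, was nearest to 7 of them and to no shared site. They spanned chr5:58186495 to chr5:59041960, 6 of the 7 were intronic, and their scores ran from 99.6 to 518.2 in replicate 2 and from 68.6 to 201.2 in replicate 3. SIK1, a salt-inducible kinase gene, had 4 A549-private sites and no shared site, while AOPEP and TCIM each had 4 beside 1 shared site. CMIP and KCTD1 had 3 and no shared site. In all, the A549-private sites had 337 nearest genes and the shared sites 325, with 51 genes in both sets.

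The sites recurring in every library included well-known HIF targets. The site at the BHLHE40 promoter (chr3:5019453-5022376), a hypoxia-inducible transcriptional repressor gene, had the top rank in both A549 libraries, with scores of 2828 and 2460. Its scores elsewhere were 571.1 and 525.7 in HCT116 replicates 2 and 3, 430.9 and 1067 in PC3 replicates 1 and 2, and 366.4 and 521.0 in T47D replicates 1 and 2. It stood above the 96th percentile in every one of these libraries. ARRDC3, an arrestin family gene, had a site 102411 bp from its start (2480 and 1843) that ranked at 99.9 and 99.8 in A549 but at 69.5 and 48.6 in T47D. Scores at the SNAPC1 site were 1482 and 1441 in A549 and those at the ALDOA promoter, a glycolytic aldolase gene, 976.5 and 953.1. SCARB1, a lipoprotein receptor gene (1043 and 654.5), LDHA, the lactate dehydrogenase gene (885.7 and 741.0), and C8orf58 (838.0 and 607.1) followed.

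Shared sites could rank very differently between lines. A site nearest FGGY (chr1:59612200-59613158) had percentiles of 91.1 and 94.9 in A549 but 11.6 and 7.48 in PC3, and one near KLHDC4 had 99.0 and 96.2 in A549 and 16.0 in the single T47D library that held it. MMP24OS, CRYL1 and SLC38A2 completed the sites with the largest gap in that direction. In the other direction, the promoter site of TEAD1, a transcription factor of the Hippo pathway (chr11:12695485-12696422), had percentiles of 29.4 and 29.5 in A549 and 98.5 and 95.01 in HCT116. The ALCAM promoter site, at a cell adhesion gene, had 0.94 and 6.91 in A549 and 74.0 in PC3 replicate 2. AP5S1, TSNARE1 and PKP3 were the other members of this group.

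The functions of the nearest genes were compared through lists of known genes, without an enrichment test. As background, 1.7% of 19794 protein-coding genes were the nearest gene of an A549-private site and 1.64% of a shared site, and 4.9% and 4.76% were among the 3 closest genes of such sites. Of the study's common HIF targets, a list that the study chose partly on these libraries, 38 of 47 annotated genes were nearest to a shared site and 3 to an A549-private site. All 3, ADM, BHLHE40 and NDRG1, also had a shared site. The A549-private NDRG1 site (chr8:134368307-134369962, scores 421.2 and 221.0) lay 54870 bp upstream of this hypoxia-induced gene, between 2 shared sites. Among 22 genes of glucose uptake and glycolysis, 16 were nearest to a shared site and 2, PFKP and PFKFB3, to an A549-private one. Both are phosphofructokinase pathway genes with 2 A549-private sites each, beside 1 shared site at PFKP and 2 at PFKFB3.

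Genes of the HIF pathway itself were found in both classes, 3 of 13 at A549-private and 4 at shared sites. The shares were 23.1% and 30.8%, beside 1.7% and 1.64% of all genes. EPAS1, the gene of HIF-2α, was nearest to an A549-private site only (chr2:46459678-46460772, scores 187.8 and 228.9), 63522 bp upstream and with 3 HIF cores. EGLN3, a prolyl hydroxylase gene that acts on HIF-α, had 2 A549-private sites (the higher with scores of 434.1 and 372.6) beside 2 shared sites found in all 3 other lines. EGLN1 and CITED2, a competitor of HIF for its coactivators, had shared sites alone.

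Angiogenic and vasoactive factors were nearest to A549-private sites in 5 of 19 cases and to shared sites in 5 (26.3% each, beside 1.7% and 1.64% of all genes). VEGFC, a lymphangiogenic growth factor gene, had an A549-private site 1426 bp upstream (scores 137.5 and 60.5) and no shared site. ADM, EDN1 and NRP1 had sites of both classes. ANGPTL4 and PDGFB had a shared site alone.

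Of 28 antioxidant genes regulated by NRF2, 5 were nearest to an A549-private site and 2 to a shared site. The shares were 17.9% and 7.14%, beside 1.7% and 1.64% of all genes. Among the 3 closest genes of a site the counts were 7 and 4 (25% and 14.3%, beside 4.9% and 4.76% of all genes). HMOX1, the heme oxygenase gene (scores 105.8 and 51.0), GCLC, for glutathione synthesis (127.4 and 96.3), SLC7A11, the cystine transporter gene (108.3 and 65.8), and AKR1C3, an aldo-keto reductase gene (396.6 and 62.1), had an A549-private site alone. FTH1, the ferritin heavy chain gene, had both, and TXNRD1 a shared site with PC3. The A549-private sites of these genes had mean percentiles between 28.6 at HMOX1 and 67.3 at FTH1. Replicates 2 and 3 were far apart at HMOX1 (percentiles 54.4 and 2.84) and AKR1C3 (90.4 and 26.4). The shared sites had mean percentiles of 79.9 at FTH1 and 40.8 at TXNRD1. In the AP-1 family and its small MAF partners 3 of 14 genes were nearest to A549-private sites (JUN, JUNB and MAFK) and 1 to a shared site (FOSL2). Counted among the 3 closest genes of a site, the members were 4 and 3.

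Lists of other functions gave counts of a few genes per class. Of 16 lipid genes, 0 were nearest to an A549-private site and 3 to a shared site (PLIN2, HILPDA and SCD). Growth factor receptors and ligands were nearest in 3 (EGFR, IGF1R and TGFB2) and 5 of 20, and genes of epithelial to mesenchymal transition in 3 (SMAD3 and SMAD7 among them) and 6 of 20. Cytoskeleton and adhesion genes gave 3 (ITGB5, MYH9 and ANXA2) and 1 of 27. Among lineage genes, 0 of 24 lung epithelial genes were nearest to an A549-private site and 2 (KRT8 and LPCAT1, 8.33%) to a shared site, while 0 of 10 prostate genes were nearest to a site of either class. Of 12 breast luminal genes 1 (TFAP2A, 8.33%) and of 12 colorectal genes 1 (KRT20, 8.33%) was nearest to an A549-private site, and 0 to a shared site. Counts among the 3 closest genes of A549-private and shared sites were 1 and 3 for lung and 1 and 0 for prostate genes. They were 1 and 2 for breast luminal and 1 and 1 for colorectal genes. For nearest genes the background was 1.7% of all genes for A549-private and 1.64% for shared sites. For the 3 closest genes it was 4.9% and 4.76%. Counts of a few genes are given as values.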

How the data were processed

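The authors trimmed reads with Trim Galore 0.3.3, aligned them to GRCh37 with BWA 0.7.5a-r405, filtered them with SAMtools 0.1.19, Picard 2.0.1 and bedtools 2.17.0 (versions from the submitters' processing notes), and called peaks in each library with MACS, whose version is not given in the sources used here. The paper also describes a second peak caller, T-PIC, with peaks found by both callers kept and then filtered against background regions. How far this holds for the deposited lists is not known here. Its HIF sites required HIF-1β peaks as well, and no HIF-1β list was used here, so the sites are not those of the paper. The authors deposited a score per peak whose scale is not stated, so it served for ranks and thresholds alone. The lists give neither read totals nor summits, so depth is unknown, and the number of peaks sets the precision; Wilson 95% intervals cover counting error only.

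Distances ran from site centres to start sites of protein-coding transcripts (GENCODE 44 on GRCh37). Python 3.11.15, numpy 2.4.6, scipy 1.17.1 and pysam 0.24.0 were used. Libraries were compared by two-sided exact permutation tests, 28 relabellings for A549 (2 libraries) against the others (6) and 256 sign patterns within libraries, with Benjamini-Hochberg adjustment over all 12 tests (threshold 0.05). Functions were tested on simulated data. Sites, motifs and gene lists were chosen with earlier results of these data known. Named are the 12 best-ranked A549-private sites, the 5 best-ranked A549-private sites within 1000 bp of a start site, the 8 best-ranked sites in all 6 other libraries, 5 shared sites with the largest rank gap in each direction, genes with 3 or more A549-private sites, and list members. Some members of these sets are not reported here.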

Additional observations from a re-analysis of the deposited data

Results flagged for a closer look

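The difference in score percentile between line-private and shared HIF-2α peaks was smaller in A549 than in the other lines: −25.5 ± 0.842 (SD, n = 2 libraries) against −36.9 ± 4.25 (SD, n = 6), a difference of 11.4 percentile points. It was taken up here because the unadjusted exact permutation p of 0.0357 passed 0.05, which is the smallest value that 28 relabellings allow; the adjusted p was 0.0714. It ranged from 8.08 to 12.6 when any 1 library was left out. It was 6.69 without HCT116, 5.42 with shared peaks required in both replicates of another line, 3.72 (exact permutation p = 0.5) at the stricter score threshold and 1.33 (exact permutation p = 0.857) with the 275 best-scoring peaks of each library.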

How the results depend on the processing

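Of 264 alternative values, 177 kept their direction and side of the threshold or moved within the spread, 54 lost a call, 29 moved and 4 reversed. The 177 do not measure stability. Tests of A549 against the other lines had no call to lose, and in some settings none could pass. The 4 calls of line-private minus shared peaks over 8 libraries were lost with any 1 library left out (smallest possible exact permutation p 0.0156): distance 0.42 to 0.74 (log10), score percentile −35.8 to −33.0, HIF core −28.9 to −23.4 and AP-1 −7.55 to −5.46 percentage points. They were also lost without HCT116 (0.56, −33.4, −26.0 and −5.66), without PC3 (0.81, −33.8, −26.9 and −5.50) and without T47D (0.24, −32.6, −21.1 and −7.75). The distance call was lost at scores at or above 69.6 (0.35), and the distance and AP-1 calls with the 275 best peaks of each library (0.35 and −2.39) and with shared peaks required in both replicates of another line (0.59 and −5.24); AP-1 was lost with the 100 bp window (−2.91). Reversals without a call were A549 minus other lines in HIF core at the stricter score (−4.27) and in distance without HCT116 (−0.019), and the A549 excess of the distance difference without T47D (0.040).

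Over sites, in the order percent A549-private, log10 distance and percentile difference, the values of 51.2%, 0.23 and −12.9 became 56.3%, 0.24 and −15.4 at the stricter score, 75.4%, 0.49 and −20.2 with both replicates of another line, 66.6%, 0.30 and −21.3 with A549 peaks of either replicate, and 58.4%, 0.17 and −15.1 without HCT116. With equal numbers of peaks the last 2 were 0.12 and −24.9; without PC3 the first 2 were 68.0% and 0.49. Distance was 0.20 with 1 start site per gene and 0.43 with start sites of all genes. Leaving out 1 library gave 51.4 to 65.5%, 0.19 to 0.38 and −26.1 to −12.7; the upper percent was without PC3 replicate 2. For sites over 1000 bp from a start site, an alternative chosen after seeing the data as were those without a line, distance reversed to −0.0017 and the percentile difference was −13.8. The cause of these changes was not tested, except that fewer libraries limit the p.

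Replicate numbers give no shared animal or batch. With the replicate block (8 relabellings, smallest p 0.125) or cell lines as units (smallest p 0.25) the 8 tests of A549 against the other lines could not pass, and such a fit leaves the differences as they were (HIF-1α overlap −19.9, exact permutation p = 0.125 with the replicate block). The 4 tests within libraries, run with cell lines as units after seeing the data, could not pass either (distance 0.56, score percentile −34.1, HIF core −26.6 and AP-1 −6.74, each with exact permutation p = 0.125, the smallest possible). Depth could not be assessed.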
